A study of Mus musculus with 6 samples.

Results

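Tight junctions seal the spaces between epithelial cells, and 9 of their genes were followed here in the cochlea, the coiled inner ear organ of hearing: Marveld2, Ildr1 and Lsr of the tricellular contact, Ocln, Cldn6, Cldn9 and Cldn14 of the membrane strands between neighbouring cells, and Tjp1 and Cgn of the layer beneath the membrane. The genes were chosen by name, and all 9 were matched by symbol to an Ensembl gene ID among the 55769 features of the files. Cochlear tissue was taken on postnatal day 3 from Plscr5-/- mice, called knockout below, and from wild-type mice, with 3 RNA-seq libraries per genotype. Plscr5 encodes a member of the phospholipid scramblase family, and the labels give neither the part of the gene that was altered, nor a strain, nor whether a library held 1 animal or a pool. P-values set the genotype difference against the spread of the 3 libraries within each group. Whether that spread is one between animals is therefore unknown, and it can include technical variation.

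In the cochlea, tight junctions near the tops of hair cells and supporting cells part the potassium-rich endolymph from the perilymph below. Claudins polymerise into the strands and set which ions pass, occludin joins them, and ZO-1 and cingulin tie the strands to actin. Where 3 cells meet, an angulin (Lsr encodes angulin-1 and Ildr1 angulin-2) recruits tricellulin, the product of Marveld2, to close the remaining gap. MARVELD2, ILDR1 and CLDN14 are known as human deafness genes.

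The sequences of the 3 claudins are shown because Cldn6 and Cldn9, the more abundant among them, are close copies whose reads could be confused. Cldn6 and Cldn9 are neighbouring genes on chromosome 17, and Ocln and Marveld2 are neighbours on chromosome 13 (RefSeq gene order on GRCm38.p6). The stretch runs from base 86 to base 192 of each coding sequence, counted from the A of the start codon, and was read from GENCODE M21 transcripts (GRCm38). Capitals mark the 6 codons of the claudin signature, a tryptophan, a glycine-leucine-tryptophan run and a pair of cysteines in the first extracellular loop.
Cldn9: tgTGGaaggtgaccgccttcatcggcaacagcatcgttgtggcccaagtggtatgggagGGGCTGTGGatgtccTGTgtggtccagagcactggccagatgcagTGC
Cldn6: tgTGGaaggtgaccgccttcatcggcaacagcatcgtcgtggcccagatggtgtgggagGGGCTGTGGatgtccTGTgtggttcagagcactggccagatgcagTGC
Cldn14: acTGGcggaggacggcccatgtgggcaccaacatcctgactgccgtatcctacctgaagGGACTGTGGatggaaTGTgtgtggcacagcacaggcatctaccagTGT
Over these 107 bases Cldn9 and Cldn6 were identical at 102, and Cldn9 and Cldn14 at 61. Over the whole coding sequence the identity of Cldn6 and Cldn9 was 76.6%, and their longest identical run, of 37 bases, opens the stretch above. Of the distinct 31-base words in the annotated Cldn9 transcript, 0.495% also occur in Cldn6, so few reads of that length could be assigned to either gene. The neighbours Ocln and Marveld2 shared 57.4% of aligned coding bases, and the angulin pair Ildr1 and Lsr 60.4%.

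Values are in TPM, a measure of transcript abundance corrected for transcript length and set to the same total in each library. It allows levels to be compared between genes but keeps no read depth, so the depth is unknown. The test was limma on log2(TPM + 1), run on the 17097 features that reached 1 TPM in 3 or more libraries, and all 9 junction genes were among them in both genotypes. Log2 fold changes below are knockout minus wild type on that scale, and errors are SD over 3 libraries unless named otherwise. The targeted gene, Plscr5, ranged from 3.69 to 5.01 TPM in knockout libraries and from 9.27 to 14.53 TPM in those of the wild type. Its log2 fold change was -1.28 (SE 0.18, limma adjusted p = 0.29), so Plscr5 itself did not pass the threshold used below. A gene that did not pass can therefore not be taken as unchanged. Wild type replicate 3 held less neuronal and Schwann cell RNA than the other 5 libraries, and the list medians that it moves most are also given without it.

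Claudin-9 was the most abundant junction transcript of the 9, at a mean of 173.8 TPM over the 6 libraries. Cldn6, a claudin of embryonic epithelia, followed at 91.96 TPM and Tjp1, which encodes ZO-1, at 85.07 TPM. The ranges of Cldn6 and Tjp1 overlapped between libraries, although Cldn6 was the higher of the pair in 6 of 6. The angulin genes Lsr and Ildr1 stood at 40.61 and 34.3 TPM, Cgn at 30.9 TPM and Ocln at 27.65 TPM, and each range overlapped with the next in this order. Ildr1 exceeded Cgn in 5 of 6 libraries, and every other neighbouring pair kept its order in all 6. The lowest levels were those of Cldn14, at 17.78 TPM, and Marveld2, at 9.533 TPM, whose ranges overlapped neither each other nor that of Ocln.

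None of the 9 junction genes passed the threshold of 0.05 on the adjusted p (limma, Benjamini-Hochberg over all tested features, adjusted p from 0.989 to 0.998). Over all tested features 2, or 0.0117%, passed, both lower in the knockout. At an unadjusted p under 0.05 the count was also 0 of 9, where 4% of all features were under that value. The mean of 8 genes was lower in the knockout and that of Marveld2 was higher. The median log2 fold change of the 9 was -0.14. Over all features the median was -0.01 and 53.4% were negative. Every one of the 9 confidence intervals included 0, and together they ran from a change of -26.8% in TPM + 1 (lower bound of Cgn) to one of 24.7% (upper bound of Marveld2), so larger changes lay outside the 95% interval of each gene.

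**Figure D1:**
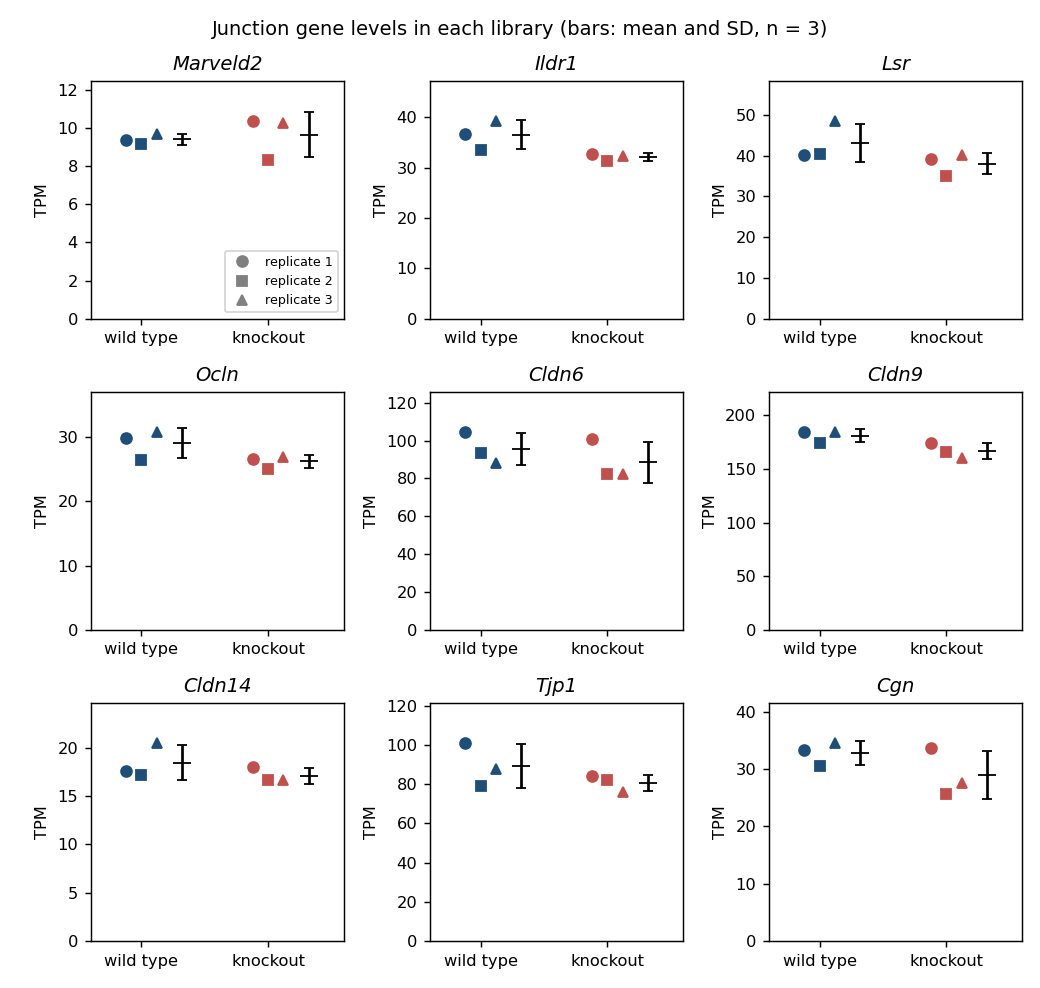
TPM of the 9 junction genes in each library, by genotype, with axes from 0. Points are libraries, with the marker giving the replicate number, and bars are the mean and SD of 3. Only for Ildr1 and Lsr do all knockout points lie below all wild-type points, and wild type replicate 3 is the highest library for 6 of the 9 genes.

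Among the tricellular genes, Ildr1 and Lsr were the 2 of the 9 genes whose groups did not overlap, both with the knockout lower, as was the case for 4.74% of all tested features. This count was 6 of 9 without knockout replicate 1, where 17.3% of all features did not overlap in that direction, and 5 of 9 without wild type replicate 2, where 11.4% did not. Ildr1 (ENSMUSG00000022900) measured 32.81, 31.24 and 32.23 TPM in knockout replicates 1 to 3 and 36.65, 33.56 and 39.34 TPM in wild type replicates 1 to 3, and the genes below are given in the same order. The knockout libraries lay close together and the wild-type ones were spread more widely, with replicate 2 nearest to the knockout. The log2 fold change of Ildr1 was -0.18 (SE 0.09), with an unadjusted p of 0.0762 and a limma adjusted p of 0.989. No other gene of the 9 had a smaller unadjusted p. An exact two-sided permutation test of Ildr1 gave p = 0.1, which is the smallest p possible with 3 libraries per genotype.

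Lsr (ENSMUSG00000001247) measured 39.09, 35.05 and 40.08 TPM in the 3 knockout libraries and 40.27, 40.53 and 48.63 TPM in the 3 from wild-type mice. The gap between the groups was narrow, 40.08 against 40.27 TPM, and wild type replicate 3 stood above the other 2 wild-type libraries. Its log2 fold change was -0.17 (SE 0.10), and -0.09 without wild type replicate 3, the value nearest to 0 among those with 1 library left out. The noncoding gene Gm4673 overlaps Lsr on the opposite strand and shares 36.3% of the distinct 31-base words of Lsr, read on either strand. Gm4673 was listed at 3.96 to 5.59 TPM, and since no source used here gives the strand setting of the counting, reads from the shared part cannot be told apart between the 2 genes.

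Marveld2 (ENSMUSG00000021636) measured 10.39, 8.30 and 10.29 TPM in the 3 knockout libraries and 9.35, 9.17 and 9.70 TPM in the 3 from wild-type mice. The 3 wild-type libraries lay between the knockout libraries, with knockout replicate 2 below all of them and replicates 1 and 3 above. The log2 fold change was 0.03 (SE 0.13) and changed sign when knockout replicate 1 (-0.022) or knockout replicate 3 (-0.016) was left out, so no direction can be given for Marveld2.

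Ocln (ENSMUSG00000021638), which encodes the strand protein occludin, measured 26.69, 25.08 and 26.93 TPM in the 3 knockout libraries and 29.91, 26.43 and 30.86 TPM in the 3 from wild-type mice. Wild type replicate 2 lay among the knockout libraries and the other 2 lay above them. The log2 fold change was -0.14 (SE 0.09, limma adjusted p = 0.989).

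Cldn9 (ENSMUSG00000066720), a claudin of hair cells and supporting cells, measured 174.40, 165.79 and 160 TPM in the 3 knockout libraries and 184.20, 173.87 and 184.81 TPM in the 3 from wild-type mice. The groups overlapped only through knockout replicate 1, which exceeded wild type replicate 2 by less than 1 TPM. Cldn9 had the narrowest interval of the 9 genes, with a log2 fold change of -0.12 (95% confidence interval -0.26 to 0.03). Its neighbour Cldn6 (ENSMUSG00000023906) measured 101, 82.45 and 82.20 TPM in the 3 knockout libraries and 104.67, 93.38 and 88.08 TPM in the 3 from wild-type mice, with replicate 1 the highest library of either genotype. The log2 fold change of Cldn6 was -0.11 (SE 0.11), and it ranged from -0.21 without knockout replicate 1 to -0.041 without wild type replicate 1.

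Cldn14 (ENSMUSG00000047109), a claudin that limits the passage of cations, measured 18.02, 16.64 and 16.63 TPM in the 3 knockout libraries and 17.64, 17.23 and 20.51 TPM in the 3 from wild-type mice. Wild type replicate 3 alone stood above all knockout libraries. The log2 fold change of -0.10 (SE 0.10) was -0.03 without that library.

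Among the scaffold genes, Tjp1 (ENSMUSG00000030516) measured 84.13, 81.93 and 76.21 TPM in the 3 knockout libraries and 101.12, 79.09 and 87.96 TPM in the 3 from wild-type mice. Wild type replicate 1 was the highest and the groups overlapped through wild type replicate 2. The log2 fold change was -0.14 (SE 0.10), and -0.05 without wild type replicate 1. Cgn (ENSMUSG00000068876), whose product cingulin binds ZO-1 and myosin, measured 33.64, 25.72 and 27.51 TPM in the 3 knockout libraries and 33.41, 30.55 and 34.57 TPM in the 3 from wild-type mice. Knockout replicate 1 lay among the wild-type libraries and the other 2 knockout libraries lay below them. Its log2 fold change of -0.18 (SE 0.12) was the lowest of the 9, and it ranged from -0.29 without knockout replicate 1 to -0.11 without knockout replicate 2. Of the distinct 31-base words in the annotated Cgn transcripts, 21.6% also occur in transcripts of other genes, so part of its level may depend on how shared reads were assigned.

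The balance between genes of the junction was compared between genotypes through 4 ratios within a library. The test used differences of log2(TPM + 1), which are close to but not the same as the logs of the TPM ratios printed here. The TPM ratio of Marveld2 to Ocln, the pair of MARVEL-domain proteins, was 0.389, 0.331 and 0.382 in the knockout and 0.313, 0.347 and 0.314 in the wild type. The difference of the log2 ratios between genotypes was 0.17 (two-sided exact permutation p = 0.2). Benjamini-Hochberg adjustment over the 4 ratios gave 0.8. With 3 libraries per genotype the smallest p this permutation test can give is 0.1, which lies above the threshold. None of the 4 ratios could therefore pass, and these p-values do not decide whether a ratio differed. The ratio of Ildr1 to Lsr ran from 0.804 to 0.91 and that of Cldn9 to Cldn6 from 1.73 to 2.10 over all libraries, with log2 differences between genotypes of -0.0055 and -0.0088. The summed TPM of Marveld2, Ildr1 and Lsr relative to Tjp1 ran from 0.853 to 1.11, with a log2 difference of -0.02. For these 3 ratios the exact permutation p was at least 0.9, and their differences changed sign when single libraries were left out.

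**Figure D2:**
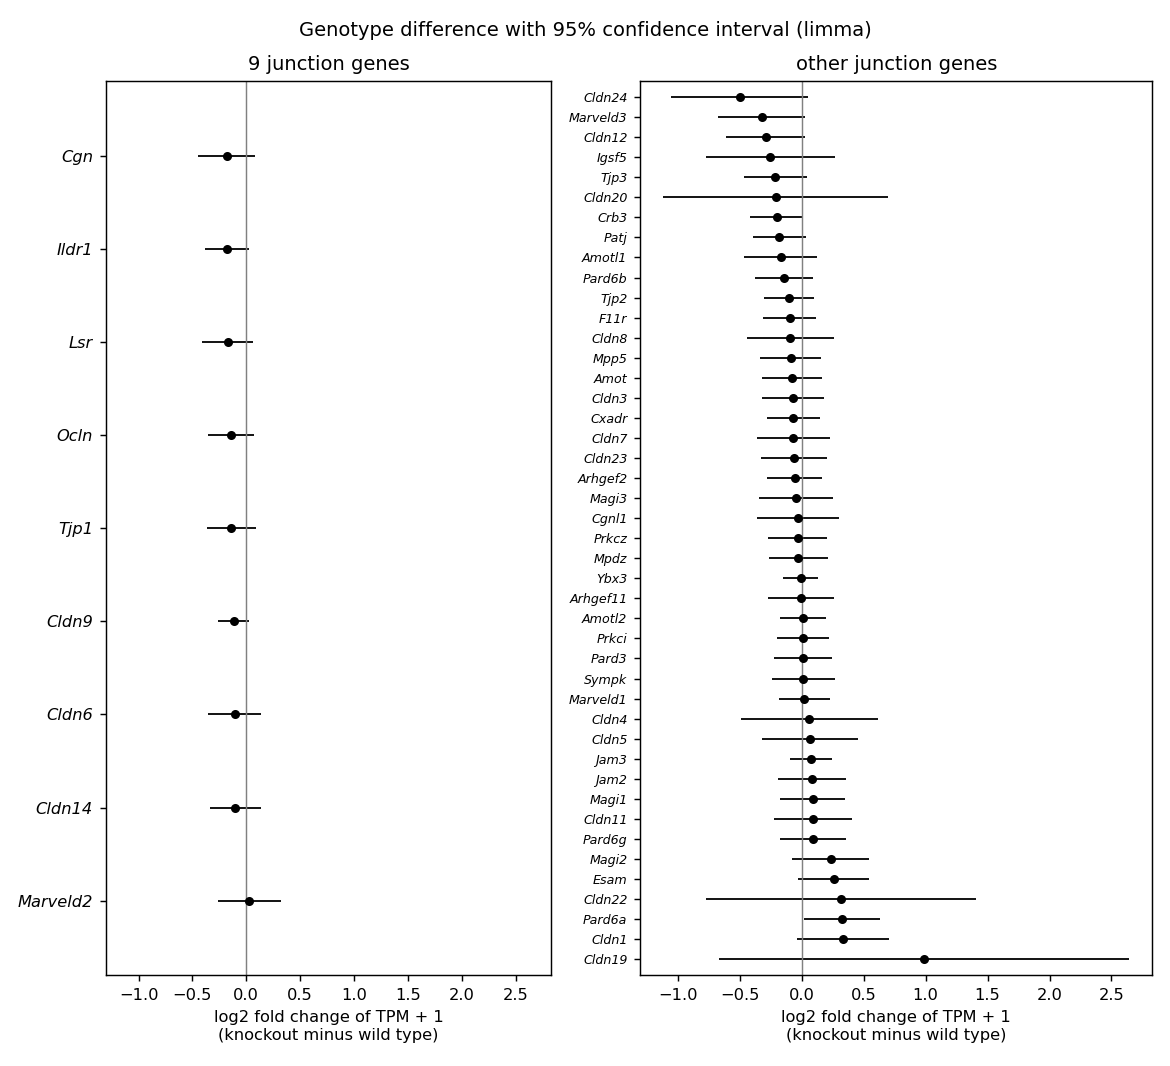
Log2 fold change of TPM + 1 (horizontal axis, knockout minus wild type) with its 95% confidence interval from limma, for the 9 junction genes on the left and the 44 other tested junction genes on the right. All 9 intervals on the left cross 0, and the widest on the right belongs to Cldn19.

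The other genes of the junction were taken from 3 lists of further claudins, further membrane proteins, and scaffolds with polarity proteins. Of 54 genes matched, 44 were tested, 26 had a negative and 18 a positive log2 fold change, and the median was -0.03. None passed over all features, and 1 had an unadjusted p under 0.05, the polarity gene Pard6a, whose mean was 21.2 ± 3.4 TPM in knockout libraries and 16.6 ± 1.5 TPM in wild-type libraries (log2 fold change 0.32, limma adjusted p = 0.989). The groups did not overlap at 6 genes with the knockout lower and at 1 with it higher, where 4.74% and 4.6% of all features did. Among these were the polarity membrane protein gene Crb3, with means of 21.2 ± 1.7 (knockout) and 24.6 ± 0.7 TPM (wild type), the scaffold gene Patj, at 25.3 ± 0.3 and 28.9 ± 2.7 TPM, and Tjp3, a relative of Tjp1, at 15.6 ± 0.2 and 18.3 ± 2.2 TPM. Marveld3, which encodes the other MARVEL protein of the junction beside occludin and tricellulin, stood at 21.4 ± 3.4 and 27.1 ± 4.7 TPM and its groups overlapped.

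Over the whole claudin family, 23 genes were matched and 16 tested. Cldn9, Cldn3 and Cldn6 led in level and together held from 52.3% to 57.6% of the summed claudin TPM of a library, with Cldn9 alone at 25.7% on average. Cldn14 ranked 12 of 23, and 12 claudins had a mean of at least 10 TPM. Cldn3, the second in level, averaged 100.8 ± 9.3 TPM in knockout libraries and 106.3 ± 13.2 TPM in those of the wild type. Cldn12 (log2 fold change -0.29) and Cldn24 (-0.50) were lower and Cldn1 (0.33) was higher with no overlap between groups, and none of them passed. Cldn24 and Cldn1 stood below 6 TPM in every library. The median over the 13 tested claudins other than Cldn6, Cldn9 and Cldn14 was -0.065 (7 negative), and 0.022 without wild type replicate 3 (5 negative).

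**Figure D3:**
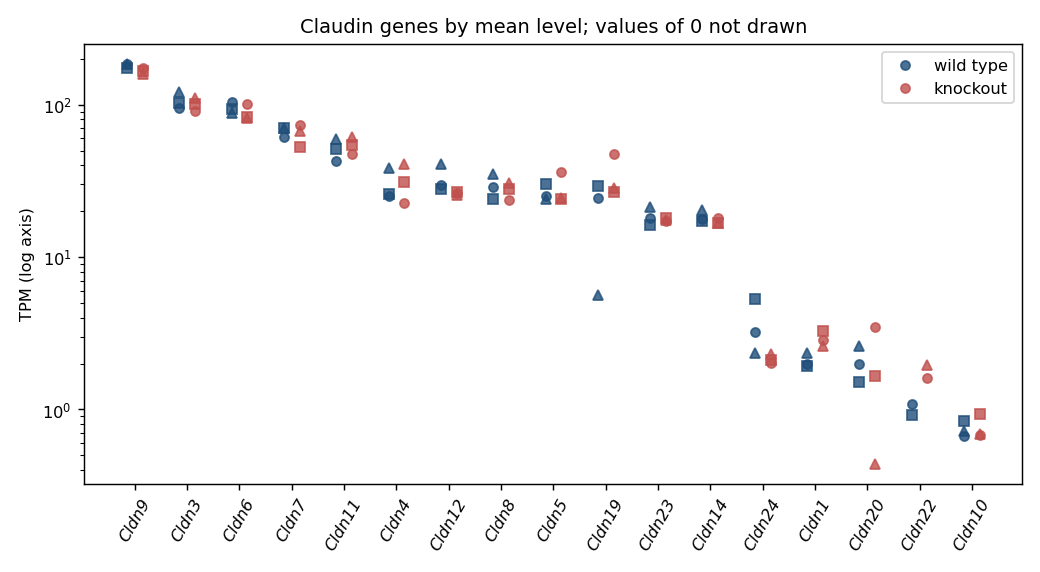
TPM of claudin genes with a mean of at least 0.5 TPM (vertical log axis), ordered by mean level, in each wild-type and knockout library, with circle, square and triangle for replicates 1, 2 and 3. Cldn9 leads in all 6 libraries, and Cldn19 in wild type replicate 3, at 5.63 TPM, stands apart from the other 5 libraries.

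Some claudins belong to other cell types of the tissue. Cldn19, a claudin of Schwann cells, measured 47.50, 26.53 and 28.53 TPM in the 3 knockout libraries and 24.28, 29.15 and 5.63 TPM in the 3 from wild-type mice. Wild type replicate 3 was low, as it was for the Schwann cell list as a whole. Cldn5, an endothelial claudin, stood at 28.1 ± 6.8 and 26.5 ± 3.3 TPM, and Cldn11, which forms the barrier of the strial basal cells, at 54.3 ± 6.9 and 51.0 ± 8.1 TPM.

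The libraries that were highest and lowest differed between the 9 genes. After each gene was centred on its mean, wild type replicate 3 was the highest library for 6 genes, wild type replicate 1 for Cldn6 and Tjp1 and knockout replicate 1 for Marveld2. Knockout replicate 2 was the lowest for 5 genes and knockout replicate 3 for the other 4. The mean centred level was 0.03, -0.14 and -0.08 in knockout replicates 1 to 3 and 0.09, -0.03 and 0.12 in wild type replicates 1 to 3, so knockout replicate 1 and wild type replicate 2 overlapped. Among the tested genes whose pattern over the 6 libraries was nearest to this mean were Tmc5, Kat14, Ets2 and Mfhas1, with a root mean square difference of 0.0187 to 0.0229 log2 units, where the median over all tested features was 0.161 and the members themselves lay between 0.0388 (Cldn9) and 0.103 (Marveld2). These 4 were picked as among the nearest of many features over 6 libraries, and Tmc5 stood at only 1.69 to 2.18 TPM.

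In RNA of mixed cochlear tissue, fewer epithelial cells and less RNA per epithelial cell cannot be told apart. Markers of the epithelial cells that carry these junctions were therefore set beside them. Of 18 tested epithelial genes 16 had a negative log2 fold change (median -0.11), with the summed TPM of the list at 1487 to 1594 in the knockout and 1499.5 to 1814.5 in the wild type. Without wild type replicate 3 the epithelial median was -0.041, with 12 of 18 negative. Epcam, an epithelial surface protein, was present in every library, from 403.71 to 511.55 TPM, and the splicing factor gene Esrp1 had means of 36.2 ± 1.6 (knockout) and 42.1 ± 3.0 TPM (wild type). Of 20 genes of adherens junctions and desmosomes 18 were negative (median -0.10), among them Cdh1, which encodes E-cadherin, at 129.6 ± 4.5 and 144.9 ± 12.7 TPM. With the epithelial score as a covariate the junction median was -0.09, and with a nerve score it was -0.10, against -0.14 without either. Single genes moved further. With the epithelial score the log2 fold change was -0.007 for Cldn14, -0.055 for Lsr, -0.060 for Ocln and -0.093 for Ildr1, each nearer to 0, while that of Cldn6 was -0.19. With the nerve score it was -0.012 for Cldn14, -0.050 for Lsr, -0.073 for Ocln, -0.10 for Ildr1 and -0.22 for Cldn6.

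**Figure D4:**
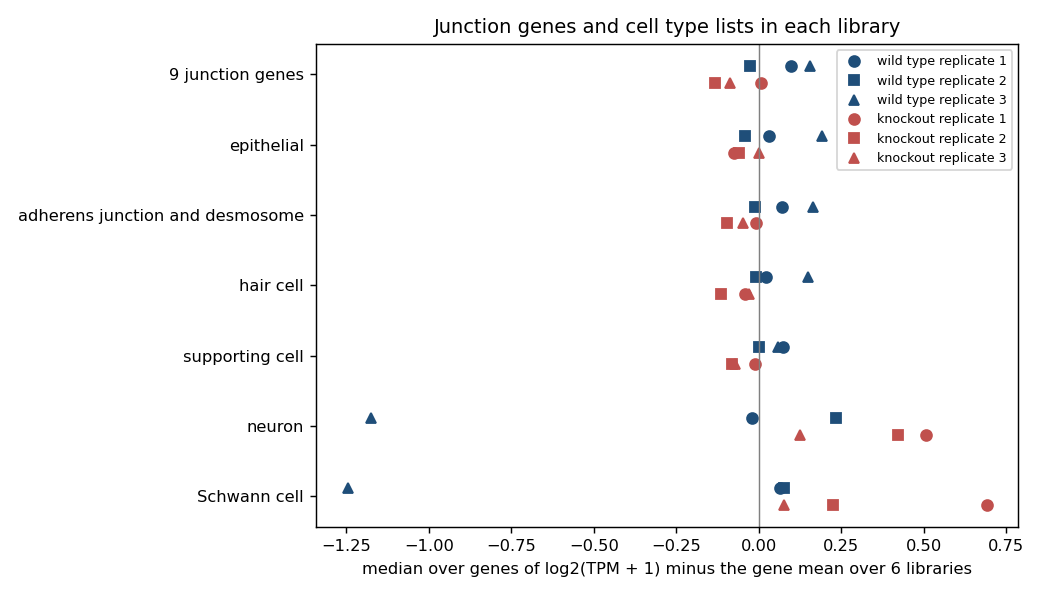
Median over the genes of a list of log2(TPM + 1) minus each gene's mean over 6 libraries (horizontal axis), for the 9 junction genes and 6 other lists, with 1 point per library. Wild type replicate 3 is highest for the junction, epithelial, adherens junction and hair cell lists and lies far below the rest for the neuron and Schwann cell lists.

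Hair cell markers had a median log2 fold change of -0.13, with 17 of 23 negative, and supporting cell markers one of -0.11, with 17 of 20 negative. Markers of the stria and ion transport had a median of -0.06 (10 of 13 negative). Of this list 2 genes were not tested, and Kcne1 (0.58 to 2.37 TPM) and Esrrb (0.62 to 2.73 TPM) lay near the filter, so its median is a weak measure of the stria. Without wild type replicate 3 the hair cell median was -0.062 (14 of 23 negative), and that of the stria list changed sign to 0.025 (5 of 13 negative). Neuronal and Schwann cell markers went the other way, with medians of 0.65 (18 of 22 positive) and 0.72 (18 of 19 positive), and wild type replicate 3 stood at -1.18 and -1.24 in these lists after centring. Without that library the medians of the neuronal and Schwann cell lists were 0.27 and 0.28, and that of the junction genes was -0.10, with 8 of 9 still negative. The endothelial list had a median of 0.04, or 0.10 without wild type replicate 3. The fibroblast and osteoblast list had one of 0.09 and the red blood cell list -0.47 over 5 tested genes. None of the genes in these lists passed over all features. The part of these other cell types in the junction values was not measured. The epithelial and nerve covariates were fitted over 6 libraries. Wild type replicate 3 was the highest library of the epithelial list (0.19 after centring) and the lowest of the neuronal and Schwann cell lists. These covariates therefore cannot be told apart from the weight of that library, nor can they part cell composition from expression.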

How the data were processed

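Total RNA of 6 cochlear libraries was analysed in 2 groups, by labelled genotype. The labels' extraction protocol names a Pou4f3 line, which no library lists as its genotype. The deposited TPM values sum to 1000000 in each library, and the unit was read from the values. The submitters' processing notes list DESeq2 and mm8 with no role, while the aligner, the quantifier and the gene models were not given in the sources used here. Symbols came from GENCODE M21 (GRCm38), and no coordinates are given because the builds differ. Depth is unknown.

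Values were tested as log2(TPM + 1) with limma 3.58.1 in R 4.3.3, with intensity trend and robust moderation, on features that reached 1 TPM in 3 or more libraries, with Benjamini-Hochberg adjustment over all of them. In simulated libraries of 17097 features the fit recovered 34.3% of 67 changes of 1.5-fold and 64.2% of 67 changes of 2-fold for this comparison, with 6 unchanged features called. The simulation also held 66 changes of 4-fold, of which 93.9% were recovered. The adjusted p of a feature depends on how many others change. Only 2 features passed in the deposited values, so these shares can overstate what the test could detect there. Ratios were tested by exact permutation. Scores used as covariates were means of centred log2 values of the epithelial list, or of the neuron and Schwann cell lists. Coding sequences were compared with Biopython 1.88.

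The members, 13 context lists and alternatives were chosen with earlier results of these data known. Genes named were the 9 members, up to 4 genes per list with the smallest p, the most abundant claudin and the 5 with the nearest pattern, of which 1 is not reported here. Cldn3, Cldn5, Cldn11, Epcam, Esrrb, Gm4673, Kcne1 and Plscr5 were named outside that rule, for their level, cell type, position or label, after their values were seen.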

Additional observations from a re-analysis of the deposited data

How the results depend on the processing

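The count of junction genes past the threshold was 0 in each of 17 alternatives (smallest limma adjusted p 0.686), as was that of the other junction genes. The junction median stayed between -0.21 and -0.09, and 8 or 9 of 9 genes were negative. This count of negative genes under each alternative, and the overlap with libraries left out, were chosen after seeing the data. Over all features, the 2 calls became 0 with no filter on low values, without trend or robust moderation and with the replicate block, 1 with median-of-ratios scaling, with haemoglobin and mitochondrial genes removed and with the epithelial score covariate, and 4 with the nerve score covariate, and ranged from 0 to 3 with single libraries left out. The cause was not tested.

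With single libraries left out, Marveld2 ranged from -0.022 (without knockout replicate 1) to 0.12, and the log2 differences of the ratios from -0.064 to 0.062 for Cldn9 to Cldn6, from -0.044 to 0.044 for Ildr1 to Lsr and from -0.13 to 0.060 for the tricellular sum to Tjp1, each changing sign. The other 8 genes kept their sign throughout. With the knockout lower, Ildr1 and Lsr alone had groups that did not overlap when any library other than knockout replicate 1 or wild type replicate 2 was left out. Of all tested features, 7.19% did not overlap in that direction without knockout replicate 2 and 7.58% without knockout replicate 3. The share was 8.25% without wild type replicate 1 and 9.23% without wild type replicate 3. Without knockout replicate 2 the groups of Marveld2 did not overlap either, with the knockout higher (10.39 and 10.29 TPM against at most 9.70 TPM). The share of all features in that direction is not given here. The labels do not say whether a replicate number marks a shared litter or batch. Same-numbered libraries had correlations of deviations of 0.19, -0.06 and 0.24 for replicates 1, 2 and 3. Replicates 1 and 3 of each genotype matched their own number best and replicate 2 did not, so these values do not settle a pairing. The replicate block left 0 junction genes past the threshold. Because TPM keeps no read totals, counting error could not be estimated.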
